A study of Mus musculus with 39 samples.

Results

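The MHC class I and immunoproteasome genes followed here are 10 genes taken by symbol from the deposited expression tables of a mouse lymph node study: the heavy chains H2-D1 and H2-K1, the light chain B2m, the peptide transporter subunits Tap1 and Tap2, the loading factor Tapbp, the inducible proteasome subunits Psmb8, Psmb9 and Psmb10, and the regulator Nlrc5. They are 10 of the 24689 gene symbols in the series, and all 10 were found in each of the 4 tables. The choice went by symbol, with no cut on measured values, but earlier results of these data were known when it was made. The study asked how dendritic cells (DC) respond when they meet T cells that recognise the antigen they carry. RNA was sequenced from 33 libraries of sorted lymph node DC and 6 libraries of sorted T cells.

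All groups came from C57BL/6 mice 8 to 12 weeks old, and the cells were taken from popliteal and inguinal lymph nodes. The DC were wild-type in every group but 1, which is labelled Cd80/86 -/- and so lacks, by its label, the costimulatory ligands CD80 and CD86. Immunized mice received a subcutaneous injection at the hock of nanoparticles holding CpG, a DNA adjuvant sensed by Tlr9, either alone, with ovalbumin (OVA) or with bovine serum albumin (BSA). The series text states that mice had been engrafted with T cells of the OT-I and OT-II lines, which recognise OVA peptides on MHC class I and on class II. Only the costimulation experiment is labelled group by group for these OT cells. In the time course, 2 libraries each came from non-immunized mice and from mice 12 or 24 h after CpG-only or OVA-CpG particles. In the costimulation experiment, at 12 h, 2 libraries each came from wild-type mice given OVA without OT cells, OVA with OT cells or BSA with OT cells, and from Cd80/86 -/- mice given OVA with OT cells. In the 20 h experiment, there were 5 libraries of each group: no immunization, OVA-CpG particles and BSA-CpG particles. The T cells were CD4+ OT-II cells sorted at 20 h, 3 libraries after OVA-CpG and 3 after BSA-CpG particles. The labels do not say which or how many animals stand behind a library, so p-values measure the spread between these samples only, which may be technical.

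MHC class I molecules show peptides from inside the cell to CD8 T cells. The proteasome cuts proteins into peptides, the TAP transporter carries these into the endoplasmic reticulum, tapasin (the product of Tapbp) holds the empty class I molecule at the transporter, and the heavy chain folds around peptide together with beta-2 microglobulin. Under interferon, Psmb8, Psmb9 and Psmb10 take the places of the constitutive catalytic subunits Psmb5, Psmb6 and Psmb7 and form the immunoproteasome. NLRC5 is the transactivator of class I genes and works through conserved promoter boxes. DC also use this route for antigen they have taken up, which is known as cross-presentation.

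The promoters of H2-D1, B2m and Tap1 are shown because they hold letters of the boxes known to control class I genes. RefSeq windows on GRCm38.p6 from 250 bases before to 50 bases after the gene start were at hand for 8 of the 10 members, all but Tap2 and Nlrc5. Of these 8, 6 lie on chromosome 17. Only the bases before the start are printed, 5′ to 3′ on the gene's strand, and capitals mark matches to the motifs named after each gene.
H2-D1 (chr17:35262844-35263093, plus strand; kB consensus and X2 core TGACG): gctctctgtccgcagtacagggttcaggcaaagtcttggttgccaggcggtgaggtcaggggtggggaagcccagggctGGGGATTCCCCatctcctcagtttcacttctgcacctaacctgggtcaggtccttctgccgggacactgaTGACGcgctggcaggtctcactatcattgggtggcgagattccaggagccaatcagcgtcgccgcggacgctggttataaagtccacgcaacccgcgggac
B2m (chr2:122147437-122147686, plus strand; interferon-response core GAAANNGAA, kB consensus and X2 core TGACG): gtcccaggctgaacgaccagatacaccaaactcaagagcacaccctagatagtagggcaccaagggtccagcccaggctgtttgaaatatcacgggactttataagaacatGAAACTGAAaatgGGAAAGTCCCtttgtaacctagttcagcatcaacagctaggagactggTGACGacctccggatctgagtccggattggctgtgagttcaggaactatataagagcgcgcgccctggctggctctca
Tap1 (chr17:34187331-34187555, plus strand; X2 core TGACG and CCAAT): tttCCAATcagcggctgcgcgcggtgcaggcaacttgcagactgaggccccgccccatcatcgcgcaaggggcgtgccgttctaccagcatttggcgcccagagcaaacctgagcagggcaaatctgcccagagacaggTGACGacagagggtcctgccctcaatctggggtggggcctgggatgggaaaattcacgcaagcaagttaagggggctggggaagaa

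The Tap1 stretch is also the promoter of Psmb9. The starts of these genes lie 226 bases apart on opposite strands, and their windows share 275 bases, so the X2 core and the CCAAT box are the same letters read from either side. H2-K1 shares an unbroken run of 47 bases with the H2-D1 promoter, which ends just past the kB match. In each of these promoters the kB consensus matches on both strands, in overlapping places 1 base apart. All motifs were searched on both strands of the 300-base windows. The X2 core was present in 5 of the 8 members with a window (B2m, H2-K1, H2-D1, Tap1 and Psmb9) and in 20.8% of all 32851 promoter windows. The kB consensus was present in 3 members (B2m, H2-K1 and H2-D1) and in 8.46% of windows, and CCAAT in 6 members and 37.4% of windows. The interferon-response core GAAANNGAA was found in B2m alone of the 8, at position -139 from the gene start, against 8.56% of windows. Only this form of the core was searched, so a promoter without a match may still hold an interferon-response element. In H2-D1 the unmarked run agtttcacttct, past the kB match, holds the parts of this core in the other order on the opposite strand. That order was not searched or counted in any window. The STAT site TTCNNNGAA was found in Psmb8 alone of the 8, at position -97, against 8.3% of windows. These matches describe letters in a short window and say nothing of binding.

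Library totals ran from 612017 to 1329203 counts in the time course, 628404 to 1621784 in the costimulation experiment and 367209 to 2052904 at 20 h, and the T cell table gave 155088 to 1316341 recovered reads. Levels are counts scaled to a library total of 1000000 (CPM). In the time course DC, summed T cell markers stood at 7563 and 7966 CPM in the non-immunized libraries against 2171 to 4485 CPM in the immunized ones, and conventional DC markers at 4892 and 3015 CPM against 4134 to 14557 CPM. Summed neutrophil markers stood at 145 and 188 CPM without immunization and at 12706 and 16466 CPM 12 h after CpG-only particles. In the 20 h experiment, T cell markers lay between 229 and 444 CPM and conventional DC markers between 20114 and 43210 CPM in all 15 libraries. Monocyte and macrophage markers there stood at 660 to 2081 CPM without immunization, 121 to 281 CPM after OVA and 179 to 316 CPM after BSA. Migratory DC markers stood at 9147 to 13408 CPM without immunization, 16542 to 22566 CPM after OVA and 12372 to 19040 CPM after BSA. Libraries with Y-linked transcripts above 20 CPM numbered 3 of 5 without immunization, 2 of 5 after OVA and 0 of 5 after BSA. The part these other cell types, and the mix of sexes, play in the results below was not tested beyond the alternatives given.

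After immunization the members rose together in the DC of the time course. Relative to non-immunized mice all 10 were higher 12 h after CpG-only particles, and 9 of 10 were higher 24 h after CpG-only particles and at 12 and 24 h after OVA-CpG particles. The 10 genes held 1.55% and 1.78% of all counts in the non-immunized libraries and between 2.43% and 3.16% in the 8 immunized libraries. A gene was called at an adjusted p under 0.05 (edgeR quasi-likelihood test, Benjamini-Hochberg over 9428 genes). Of all genes tested, 11.6% were called higher at 12 h and 7.96% at 24 h after CpG-only particles, and 9.56% and 10.2% after OVA-CpG particles. The members' median log2 difference was 0.91 and 1.16 after CpG-only particles and 1.11 and 1.17 after OVA-CpG particles, with the median of all genes between -0.03 and 0.00. In all 4 comparisons each member was higher in both immunized libraries than in both non-immunized ones, a pattern that 17.3% to 21% of all genes show in these groups of 2. These are bulk libraries, in which fewer cells of a type and less RNA per cell cannot be told apart. The 4 comparisons share the same 2 non-immunized libraries.

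**Figure D1:**
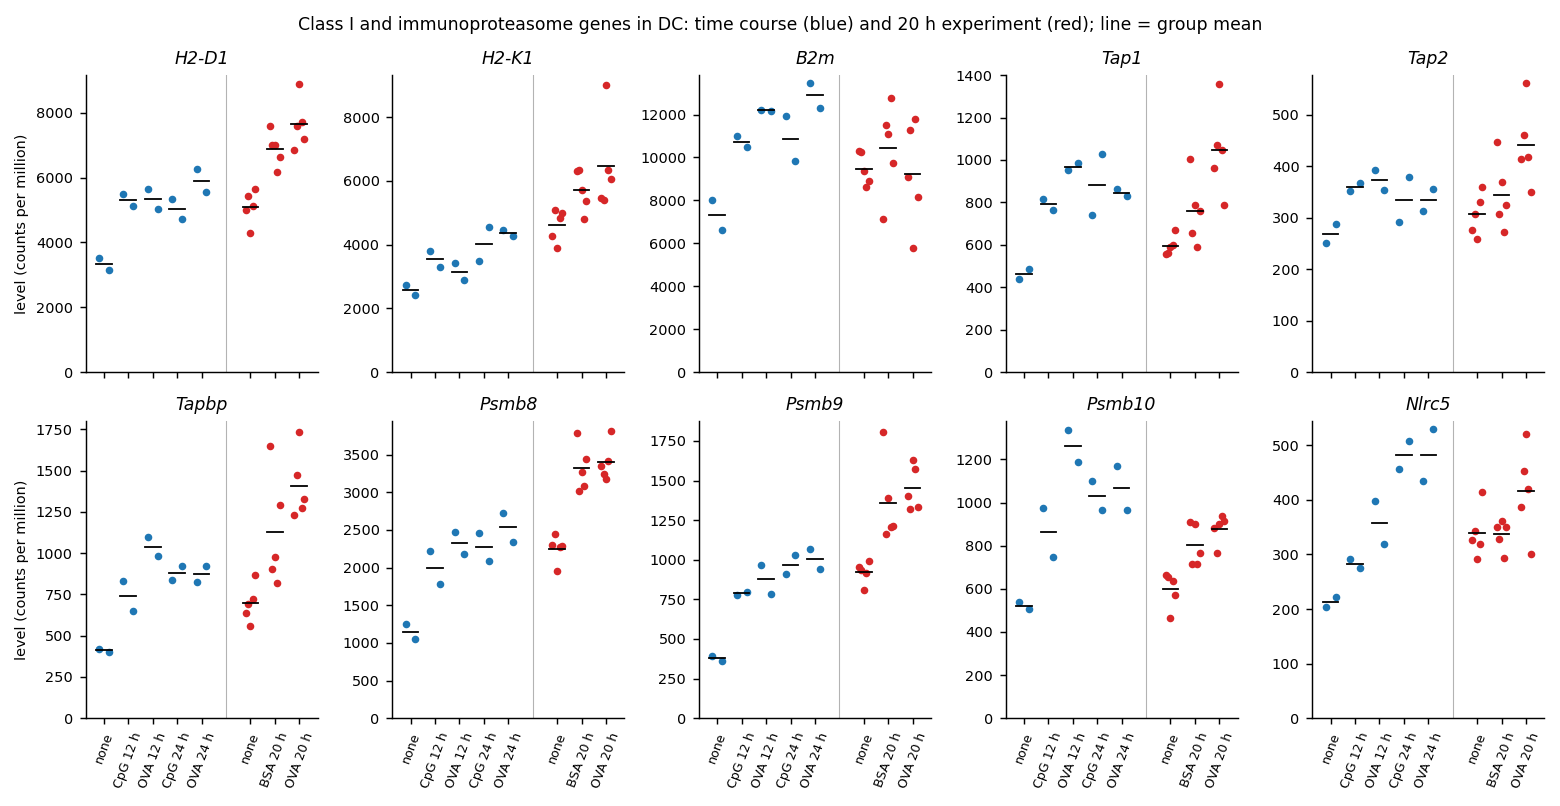
Levels of the 10 members in DC, in CPM, for each library of the time course (blue, 2 per group) and of the 20 h experiment (red, 5 per group), with a line at each group mean. Within the time course the non-immunized libraries are the lowest for every member, and the 20 h groups overlap for B2m, with means of 9484, 9219 and 10441 CPM.

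Among the heavy chains, H2-D1 stood at 3506 and 3160 CPM without immunization, at 5508 and 5126 CPM 12 h and 5330 and 4713 CPM 24 h after CpG-only particles, and at 5641 and 5016 CPM 12 h and 6262 and 5553 CPM 24 h after OVA-CpG particles. Its log2 differences from non-immunized DC ran from 0.80 to 1.04, and all 4 passed the test. H2-K1 stood at 2746 and 2413 CPM without immunization and between 2886 and 4540 CPM in the immunized libraries. It rose by 0.97 ± 0.18 (log2, SE) 24 h after OVA-CpG particles (adjusted p = 0.0016, edgeR). At 12 h after the same particles its 0.52 ± 0.18 missed the threshold (adjusted p = 0.0748, edgeR). This 12 h value passed in 3 of 10 alternatives: DESeq2 (0.0460), edgeR with no filter on low counts (0.0238) and edgeR with only the groups compared (0.0187). In the other 7, of which 4 left a group with 1 library, H2-K1 was not called. B2m, which pairs with every class I heavy chain, stood at 8023 and 6625 CPM without immunization and between 9815 and 13479 CPM afterwards. Its differences ran from 0.77 to 1.03 and all passed. Reads of H2-D1, H2-K1 and other heavy chain genes can be confused where these genes are nearly identical, so their separate values are uncertain.

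The loading factor Tapbp stood at 419 and 403 CPM without immunization, 834 and 652 CPM 12 h and 840 and 922 CPM 24 h after CpG-only particles, and 1096 and 984 CPM 12 h and 828 and 923 CPM 24 h after OVA-CpG particles. The log2 difference at 12 h after OVA-CpG particles was 1.57 ± 0.18 (adjusted p = 1.62e-05, edgeR). Tap1 stood at 440 and 488 CPM without immunization and between 739 and 1026 CPM in the immunized libraries, with differences of 0.99 to 1.29 that all passed. Tap2, the other chain of the same transporter, stood at 250 and 287 CPM without immunization and between 291 and 393 CPM afterwards. It was called at 12 h after both kinds of particle (0.64 ± 0.18 and 0.70 ± 0.18), and the 0.53 ± 0.18 seen at 24 h after each missed the threshold (adjusted p = 0.0763 and 0.0653). Both chains moved in the same direction, and whether Tap1 changed more than Tap2 was not tested.

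The inducible proteasome subunits showed some of the larger differences. Psmb9 stood at 394 and 362 CPM without immunization, 776 and 798 CPM 12 h and 907 and 1031 CPM 24 h after CpG-only particles, and 968 and 785 CPM 12 h and 1071 and 945 CPM 24 h after OVA-CpG particles. The log2 difference at 24 h was 1.56 ± 0.19 after CpG-only particles (adjusted p = 2.84e-05, edgeR) and 1.63 ± 0.19 after OVA-CpG particles (adjusted p = 1.27e-05). Psmb8 rose from 1246 and 1050 CPM to between 1776 and 2729 CPM, with differences of 1.01 to 1.36. Psmb10 rose from 537 and 507 CPM to between 749 and 1337 CPM, with its highest values 12 h after OVA-CpG particles (2.83-fold, adjusted p = 6.5e-05, edgeR). All 12 tests of these 3 subunits passed.

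Nlrc5, the class I transactivator, stood at 205 and 223 CPM without immunization, at 292 and 275 CPM 12 h and 458 and 507 CPM 24 h after CpG-only particles, and at 397 and 319 CPM 12 h and 435 and 529 CPM 24 h after OVA-CpG particles. Both 24 h groups lay above both 12 h groups with no overlap. Such a rise from 12 to 24 h was shown by 25.3% of all genes after CpG-only particles and 26.7% after OVA-CpG particles. Nlrc5 was among 3 members that rose this way after each kind of particle, and 0 and 3 members fell without overlap. Between 12 and 24 h after CpG-only particles Nlrc5 rose by 0.76 ± 0.18 (log2, adjusted p = 0.0172, edgeR), and no other member was called there, with the other 9 between -0.10 and 0.29 and 3.36% of all genes called higher. After OVA-CpG particles the same interval gave 0.41 ± 0.18 (adjusted p = 0.184), and edgeR called 0 of 10 members (2 at an unadjusted p under 0.05) where 8.9% of all genes were called. H2-K1 stood at 0.46 ± 0.18 over that interval (adjusted p = 0.147), and whether Nlrc5 differed from the other members over time was not tested. Between 12 and 24 h after CpG-only particles, summed neutrophil markers went from 12706 and 16466 CPM to 598 and 76.0 CPM, with 7 of 7 tested markers called lower, and monocyte and macrophage markers from 2829 and 2447 CPM to 1137 and 849 CPM, with 9 of 10 called lower. Their part in the Nlrc5 values was not tested. For Nlrc5, the difference between the changes after CpG-only and OVA-CpG particles was -0.35 ± 0.25 (adjusted p = 0.584). The call after CpG-only particles was lost with only the 4 libraries compared in the fit (adjusted p = 0.0880), and without CpG 12 h replicate 1, CpG 12 h replicate 2 or CpG 24 h replicate 2 (adjusted p = 0.0930, 0.154 and 0.0796).

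Calls in the time course depended on the pair of non-immunized libraries. Without non-immunized replicate 2, the members' median log2 difference 12 h after CpG-only particles was 0.84, against 0.91 with all libraries. The sizes for 7 members (all but Tap1, Tapbp and Psmb9) stayed between 0.57 and 0.88. Leaving out any 1 library of that comparison left a group with 1 library. It lowered the count of all genes called and also the count of members called. For 24 h after CpG-only particles and 12 h after OVA-CpG particles the count fell to 6 at the lowest, and 24 h after OVA-CpG particles it was 9 whichever library was left out.

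**Figure D2:**
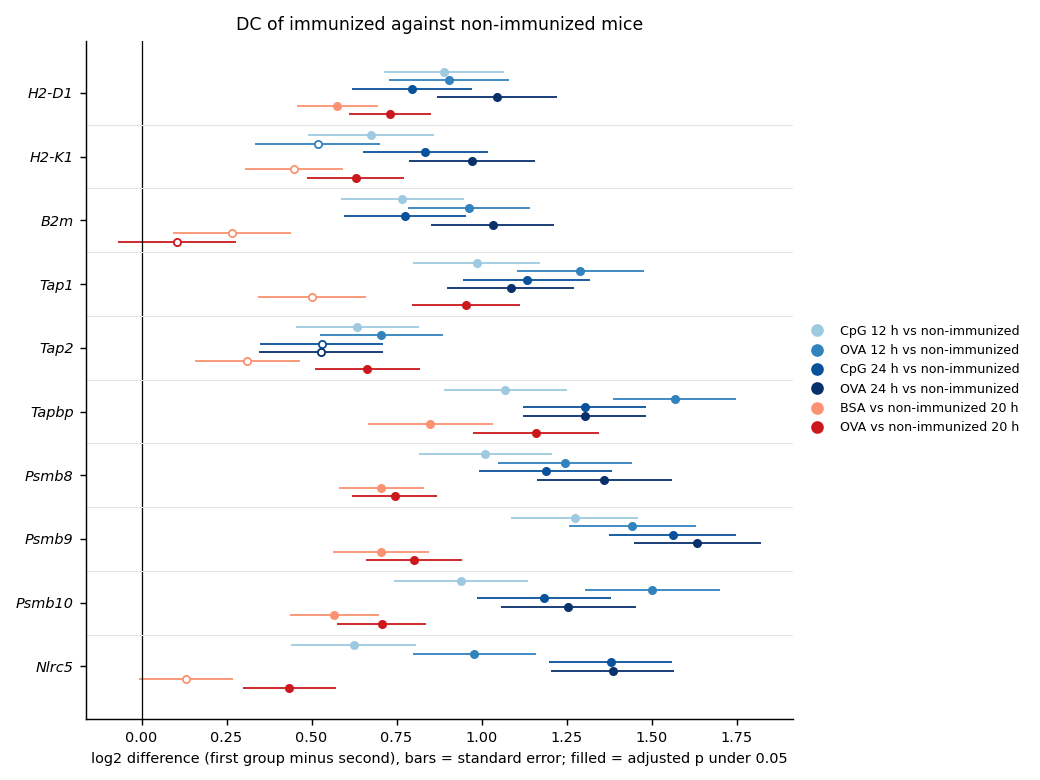
Log2 difference of each member between immunized and non-immunized DC, with bars for the standard error and filled points where the adjusted p is under 0.05; blue points are the time course (2 libraries a group) and red points the 20 h experiment (5 a group). All 60 points lie above 0, from 0.11 for B2m after OVA at 20 h to 1.63 for Psmb9 after OVA-CpG particles at 24 h.

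At 20 h, with 5 libraries a group, 9 of 10 members rose after OVA-CpG particles, where 9.59% of 9159 genes were called higher, and 5 of 10 rose after BSA-CpG particles, where 3.68% were. The members' median log2 difference was 0.72 after OVA and 0.53 after BSA, against -0.01 for all genes in both. For 7 members every OVA library lay above every non-immunized one, which 3.84% of all genes showed. For 4 members (H2-D1, Psmb8, Psmb9 and Psmb10) this held after BSA, as it did for 2.13% of all genes. The share of counts held by the 10 genes was 2.25% to 2.67% without immunization, 3.01% to 3.49% after OVA and 2.98% to 3.19% after BSA. Both comparisons share the 5 non-immunized libraries.

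H2-D1 stood at 4991, 5429, 4300, 5110 and 5643 CPM in non-immunized replicates 1 to 5, at 6855, 7589, 8892, 7705 and 7175 CPM after OVA and at 7604, 6998, 6997, 6173 and 6626 CPM after BSA. Both immunized groups lay wholly above the non-immunized one and overlapped each other. The log2 difference was 0.73 ± 0.12 after OVA (adjusted p = 0.000327, edgeR) and 0.58 ± 0.12 after BSA (adjusted p = 0.00803). H2-K1 had a mean of 4612 ± 519 CPM without immunization, 6453 ± 1481 CPM after OVA and 5704 ± 655 CPM after BSA (SD, n = 5). It rose by 0.63 ± 0.14 after OVA, and its 0.45 ± 0.14 after BSA missed the threshold (adjusted p = 0.0698, edgeR). The value after BSA passed in 2 of 18 alternatives, DESeq2 (0.0223) among them, and H2-K1 was not called in the other 16. OVA replicate 3, at 9003 CPM, stood apart from the other 4 OVA libraries at 5384 to 6345 CPM.

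B2m was not called at 20 h after either OVA or BSA. It stood at 10288, 10232, 9365, 8645 and 8892 CPM without immunization, at 9097, 11259, 5795, 11788 and 8154 CPM after OVA and at 7129, 11494, 11085, 12778 and 9719 CPM after BSA. All 3 groups overlapped, and the library with the lowest B2m, OVA replicate 3, had the highest H2-K1 and H2-D1. The log2 difference was 0.11 ± 0.17 after OVA (adjusted p = 0.721, edgeR) and 0.27 ± 0.17 after BSA (adjusted p = 0.412). The value after OVA changed sign without OVA replicate 2 or 4 (-0.0017 and -0.0114). The log2 ratio of B2m to H2-K1 counts, compared between libraries only, ran from 0.83 to 1.27 without immunization, from -0.64 to 1.06 after OVA and from 0.18 to 1.41 after BSA.

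Tapbp stood at 639, 692, 558, 724 and 865 CPM without immunization, at 1229, 1472, 1736, 1271 and 1327 CPM after OVA and at 1650, 901, 976, 819 and 1291 CPM after BSA. Every OVA library exceeded the non-immunized ones, and BSA replicate 4 fell within their range. The log2 difference was 1.16 ± 0.18 after OVA (adjusted p = 0.000235, edgeR) and 0.85 ± 0.18 after BSA (adjusted p = 0.00947). Tap1 stood at 555, 561, 588, 601 and 668 CPM without immunization, at 964, 1069, 1357, 1047 and 788.5 CPM after OVA and at 1004, 655, 790, 589 and 760 CPM after BSA. All OVA libraries were above the non-immunized range, while BSA replicates 2 and 4 were inside it. Tap1 rose by 0.96 ± 0.16 after OVA (adjusted p = 0.00035, edgeR), and its 0.50 ± 0.16 after BSA missed the threshold (adjusted p = 0.0664, edgeR). The value after BSA passed in 4 of 18 alternatives. Among them were DESeq2 (0.0329) and edgeR without BSA replicate 2 (0.0485) or BSA replicate 4 (0.0422). In the other 14 Tap1 was not called. Tap2 had means of 307 ± 41, 441 ± 79 and 344 ± 67 CPM in the non-immunized, OVA and BSA groups (SD, n = 5), and rose after OVA by 0.66 ± 0.15 (adjusted p = 0.00547, edgeR), with 0.31 ± 0.15 after BSA (adjusted p = 0.262).

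The 3 inducible proteasome subunits rose after both antigens. Psmb8 had means of 2252 ± 177, 3398 ± 249 and 3320.5 ± 307 CPM in the non-immunized, OVA and BSA groups (SD, n = 5), Psmb9 922 ± 70, 1451 ± 142 and 1356 ± 266 CPM, and Psmb10 597 ± 83, 880 ± 68 and 801 ± 98 CPM. In each case both immunized groups lay above the non-immunized group with no overlap. Log2 differences were 0.74, 0.80 and 0.71 after OVA and 0.70, 0.70 and 0.57 after BSA, each with an SE of 0.12 to 0.14. The adjusted p ran from 0.000372 to 0.0148 (edgeR). The call for Psmb10 after BSA was lost without BSA replicate 1 (adjusted p = 0.0636).

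Nlrc5 had the smallest difference of the 9 members called after OVA at 20 h. It stood at 327, 342, 291, 320 and 414 CPM without immunization, at 387, 454, 521, 421 and 300 CPM after OVA and at 350, 329, 362, 293 and 351 CPM after BSA. The OVA and non-immunized groups overlapped, with OVA replicate 5 among the lower values. Nlrc5 was called higher after OVA (0.44 ± 0.14, adjusted p = 0.0356, edgeR), but in 12 of 18 alternatives the call was lost, with adjusted p from 0.0119 to 0.139 over all of them. Among these were leaving out non-immunized replicate 1, 2, 3 or 4 or OVA replicate 1, 2, 3 or 4. After BSA the difference was 0.13 ± 0.14 (adjusted p = 0.646). With a term for Y-linked transcripts, the count of members called after BSA was 3 in place of 5, Tapbp and Psmb10 then standing at adjusted p = 0.0570 and 0.0518 (edgeR). That fit called 187 of 9159 genes in either direction, against 499 without the term. The members' median log2 difference was 0.58 with the term and 0.53 without it.

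No member was called between antigens in DC. For OVA against CpG-only particles edgeR called 0 of 10 members at 12 h (2 at an unadjusted p under 0.05) and 0 at 24 h (0 unadjusted), where 2.46% and 0% of all genes were called in either direction. At 12 h, Psmb10 differed by 0.56 ± 0.20 (adjusted p = 0.191) and Tapbp by 0.50 ± 0.18 (adjusted p = 0.203), and the range over the 10 was -0.16 to 0.56. At 24 h the range was -0.05 to 0.26. The change in the antigen difference between 12 and 24 h was called for 0 members (0 unadjusted) and 3.38% of all genes, with Tapbp at -0.50 ± 0.25 (adjusted p = 0.374). For OVA against BSA at 20 h edgeR called 0 members (3 unadjusted), as it called 0% of all genes. Members were higher after OVA for 9 of 10, B2m being the exception at -0.16 ± 0.17, and the libraries of the groups overlapped for all 10. Tap1 had the largest value at 0.45 ± 0.16 (95% interval 0.15 to 0.76, adjusted p = 0.678), followed by Tap2 at 0.35 ± 0.15 and Nlrc5 at 0.31 ± 0.14. DESeq2 also called 0 members in each of these comparisons.

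The costimulation experiment asked whether OT cells, the antigen they recognise, and CD80 and CD86 on the DC change the DC 12 h after immunization. Transcripts of the targeted genes were still counted in the libraries labelled Cd80/86 -/-: Cd80 at 6 and 10 counts against 15 and 8 in wild-type DC with OVA and OT cells, and Cd86 at 53 and 39 counts against 107 and 66. In CPM, Cd86 stood at 37.4 and 48.5 against 81.5 and 82.6. Counts from outside the deleted part would check nothing, and the deleted part is not given in the sources used here, so these are called the libraries labelled Cd80/86 -/-. In the libraries without OT cells, NK markers summed to 2119 and 5609 CPM against 12 to 156 CPM in the other 6, and conventional DC markers to 5501 and 10000.5 CPM against 14031 to 27794 CPM. Their part in the values was not tested.

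None of the 10 members was called by edgeR in any of the 3 comparisons, and DESeq2 called 0 as well. With against without OT cells, 1 member had an unadjusted p under 0.05 and 2.6% of all genes were called. For OVA against BSA with OT cells 0 members had one and 0.0107% of genes were called, and for the libraries labelled Cd80/86 -/- against wild type 2 members had one and 0% of genes were called. Tap2 had the largest difference in 2 of these comparisons. It stood at 242 and 217 CPM with OVA alone, 310 and 389 CPM with OVA and OT cells, 317 and 285 CPM with BSA and OT cells, and 195 and 219 CPM in the libraries labelled Cd80/86 -/-. The OVA group with OT cells lay above the OVA group without them and above the libraries labelled Cd80/86 -/-. With against without OT cells, 21.3% of all genes were higher and 28.5% lower without overlap. Of the members, 2 were higher this way (Tap2 and Tapbp) and 1 lower (Psmb10). The log2 difference of Tap2 was 0.67 ± 0.27 with against without OT cells (adjusted p = 0.235, edgeR) and -0.83 ± 0.28 for the libraries labelled Cd80/86 -/- against wild type (adjusted p = 0.350). With only those 4 libraries in the fit the latter was -0.84 and was called (adjusted p = 0.0239, edgeR). In that fit Tap2 was the only member called, and 679 of 8473 genes were called in either direction.

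H2-K1 stood at 2548 and 2434 CPM in the libraries labelled Cd80/86 -/- and at 4038 and 3371 CPM in wild-type DC with OVA and OT cells, a log2 difference of -0.64 ± 0.29 (adjusted p = 0.434, edgeR). H2-D1, H2-K1, Tap2 and Tapbp were lower in both libraries labelled Cd80/86 -/- than in both wild-type ones, as were 22.7% of all genes. B2m showed its largest value between antigens, with 10489 and 7980 CPM after OVA and 8390 and 5329 CPM after BSA (0.49 ± 0.35, adjusted p = 0.732). Psmb8 stood between 1671 and 2334 CPM in all 8 libraries, Psmb9 between 676 and 1061 CPM and Psmb10 between 771 and 1293 CPM. Intervals were wide with 2 libraries a group. For Psmb9, the 95% interval of the log2 difference with against without OT cells ran from -0.78 to 0.44.

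**Figure D3:**
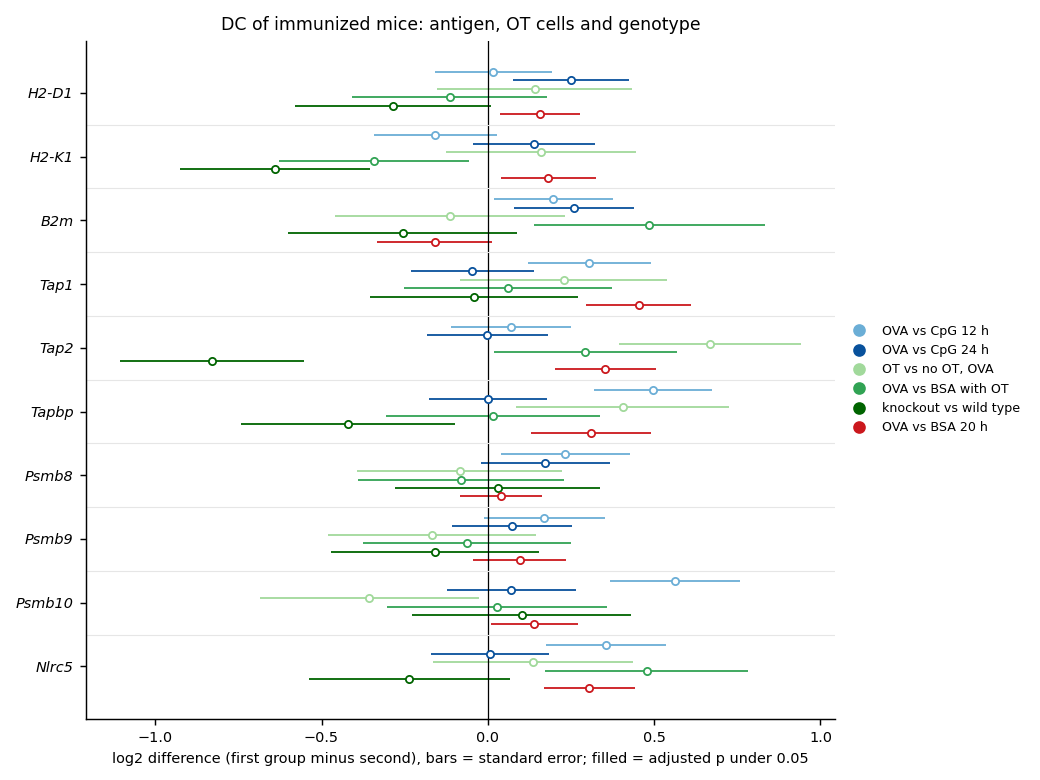
Log2 differences of each member between DC groups that were all immunized, with bars for the standard error: OVA against CpG-only particles (blue), the costimulation experiment (green) and OVA against BSA at 20 h (red); "knockout" is the group labelled Cd80/86 -/-. No point is filled, that is, none has an adjusted p under 0.05, and Tap2 holds both the highest value (0.67) and the lowest (-0.83).

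The related genes of the pathway were followed in DC as lists. Of 22 other class I heavy chain genes 12 could be tested in the time course, and 5, 7, 4 and 7 rose (CpG-only particles at 12 and 24 h, then OVA-CpG particles at 12 and 24 h), with none lower and medians of 0.87 to 1.27. H2-T23, which encodes the nonclassical Qa-1, rose by 1.43 ± 0.17 at 24 h after CpG-only particles (adjusted p = 3.48e-05, edgeR). At 20 h after OVA, 2 of 11 rose, H2-T22 and its near copy H2-T9, both at 0.79 ± 0.17, and reads of this pair cannot be told apart. After BSA 0 of 11 were called and 2 had an unadjusted p under 0.05. Of 12 loading and trimming genes, 3, 2, 4 and 1 rose in the time course. At 20 h after OVA, Tapbpl, a relative of tapasin that edits class I peptides, rose by 0.62 (adjusted p = 0.00419, edgeR), the chaperone Calr rose by 0.48 (adjusted p = 0.0359) and the peptidase Tpp2 fell by 0.62 (adjusted p = 0.0469).

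Among proteasome activators and assembly factors, 3, 2, 4 and 3 of 9 rose in the time course. Psme1, a subunit of the interferon-inducible activator PA28, rose by 1.16 ± 0.17 at 24 h after CpG-only particles (adjusted p = 0.000253, edgeR) and by 0.69 ± 0.13 at 20 h after OVA (adjusted p = 0.000884). Of 13 regulators of these genes, 3, 5, 5 and 4 rose in the time course and 4 rose at 20 h after OVA. Among the last were Stat2 (1.62 ± 0.26) and Irf9 (1.53 ± 0.21), which act in the response to type I interferon, and Irf1 (0.83 ± 0.17). Irf1, a factor that binds interferon-response elements, rose by 1.24 ± 0.17 at 24 h after CpG-only particles (adjusted p = 0.000119, edgeR).

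The constitutive catalytic subunits were not called at 24 h in the time course. At 24 h after CpG-only particles Psmb5 differed by 0.02 ± 0.27, Psmb6 by -0.0025 ± 0.18 and Psmb7 by 0.17 ± 0.23, none of them called. At 12 h after OVA-CpG particles Psmb7 rose by 0.86 ± 0.22 (adjusted p = 0.0149, edgeR). At 20 h after OVA Psmb6 rose by 0.49 ± 0.16 (adjusted p = 0.0426), while Psmb5 stood at 0.40 ± 0.21 and Psmb7 at -0.10 ± 0.17. Of 11 other core subunits, 4, 1, 5 and 2 rose in the time course.

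Within a library, the log2 ratio of an inducible to its constitutive subunit does not depend on library scaling, and it was compared between groups only. In the time course the ratio of Psmb9 to Psmb6 stood at 0.73 and 0.80 without immunization and at 1.58 to 2.40 in the 8 immunized libraries. Group means were 0.76 without immunization, 1.75 and 1.66 at 12 h and 2.32 and 2.22 at 24 h (CpG-only, then OVA-CpG particles). Both 24 h groups lay above both 12 h groups. The mean ratio of Psmb8 to Psmb5 was 4.19, then 4.42 and 4.76 at 12 h and 5.31 and 5.60 at 24 h, and that of Psmb10 to Psmb7 was 2.10, then 2.53 and 2.72 at 12 h and 3.09 and 2.97 at 24 h. The 12 h group after CpG-only particles overlapped the non-immunized group for Psmb8 to Psmb5, and no other immunized group overlapped it for any of the 3 ratios. With 2 libraries a group these ratios were not tested.

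At 20 h, the ratio of Psmb10 to Psmb7 was 1.64 ± 0.31 without immunization, 2.51 ± 0.37 after OVA and 2.06 ± 0.36 after BSA (SD, n = 5). The lowest OVA library, at 2.22, lay above the highest non-immunized library, at 1.84. The difference of 0.87 had the smallest p that 5 against 5 libraries allow (p = 0.00794, exact two-sided permutation test), which became 0.0714 after Benjamini-Hochberg adjustment over 9 ratio tests. For Psmb9 to Psmb6 the difference after OVA was 0.32 (exact permutation p = 0.0556, adjusted 0.179) and for Psmb8 to Psmb5 it was 0.41 (exact permutation p = 0.111, adjusted 0.2), or 0.24 without non-immunized replicate 3. None of the 9 ratio tests passed after adjustment. Constitutive counts were as low as 30 in a library for Psmb5, which limits the precision of that ratio.

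**Figure D4:**
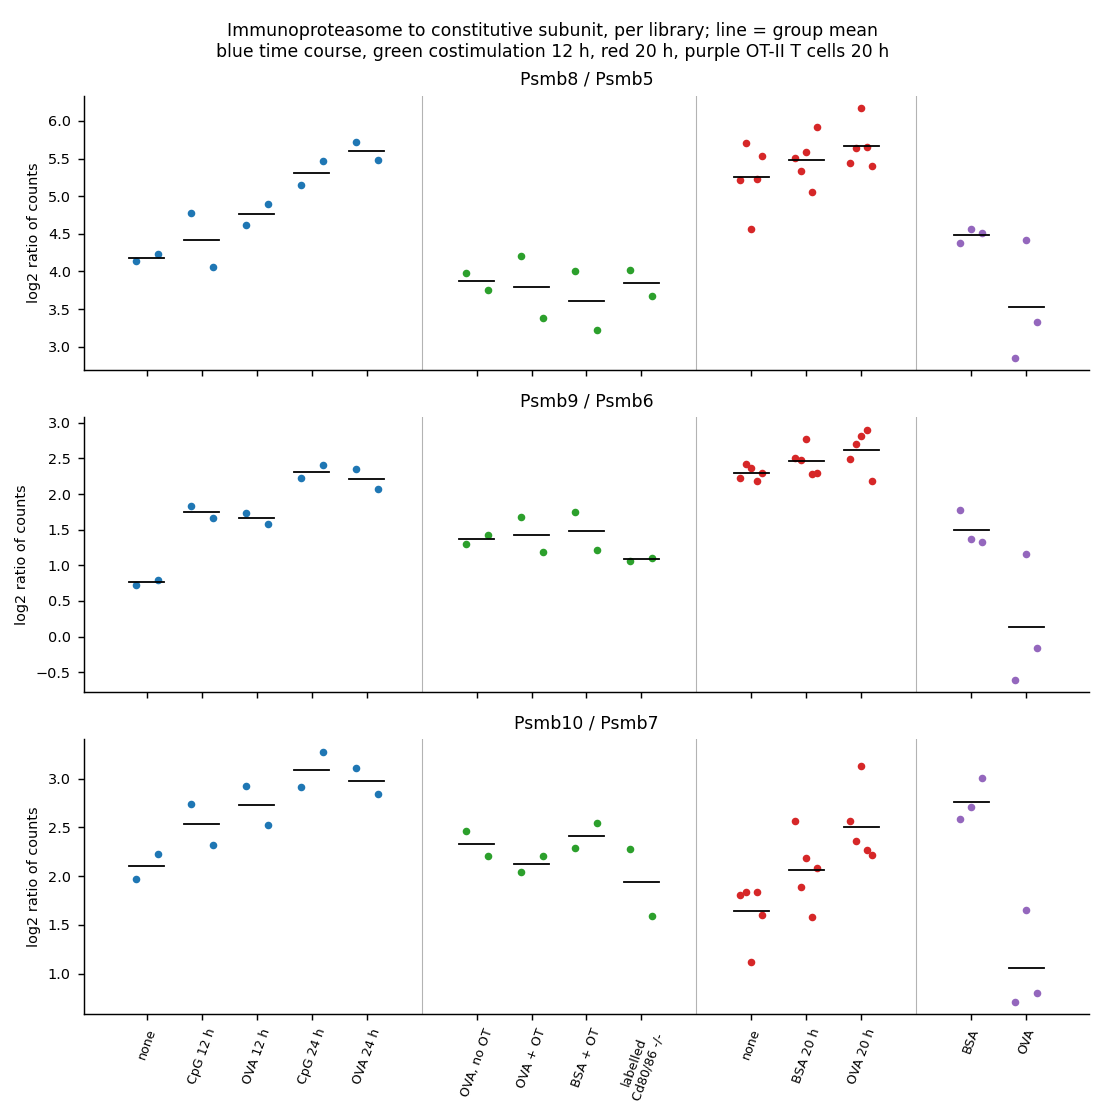
Log2 ratio of the counts of each inducible proteasome subunit to its constitutive counterpart in every library, with a line at the group mean; blue is the time course, green the costimulation experiment, red the 20 h experiment and purple the OT-II T cells. In the time course Psmb9 to Psmb6 climbs from a mean of 0.76 without immunization to 2.32 and 2.22 at 24 h, while in T cells the means are 1.49 after BSA and 0.13 after OVA.

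In the OT-II T cells no member was called. All 10 had a lower mean after OVA than after BSA, with log2 differences from -0.56 to -0.22 and a median of -0.39 against 0.04 for all genes. No member passed the test (limma with a trend on log2(normalized count + 1), 6452 genes, 5.04% of them called lower and 10.8% higher), 3 had an unadjusted p under 0.05, and edgeR on the recovered reads also called 0. Psmb10 stood at 439, 283 and 379 normalized counts after BSA and at 212, 335 and 205 after OVA (-0.56 ± 0.23, adjusted p = 0.112, limma). H2-D1 stood at 1517, 1335 and 1448 after BSA and at 992, 1335 and 978 after OVA (-0.39 ± 0.16, adjusted p = 0.103). B2m stood at 3647, 3381 and 3485 after BSA and at 3038, 3262 and 2364 after OVA, and it was the member whose groups did not overlap, as 15.4% of genes tested showed in this direction.

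OVA replicate 2 stood above the other 2 OVA libraries for all 10 members. Without it, limma called 5 members lower: Psmb9 (-0.88), Psmb10 (-0.79), Nlrc5 (-0.72), Tap1 (-0.55) and H2-D1 (-0.54), with adjusted p from 0.00546 to 0.0480. In that fit 1467 of 6168 genes were called in either direction, against 1025 of 6452 with all 6 libraries. Summed conventional DC and B cell markers were also highest in OVA replicate 2 among the OVA libraries, while replicate 1 was below replicate 3 for both sums. Of 8 conventional DC markers 6 were in the table, and they summed to 3612, 2741 and 2894 normalized counts after BSA and to 448, 3027 and 1830 in OVA replicates 1, 2 and 3. B cell markers (9 of 10 in the table) summed to 786, 487 and 648 after BSA and to 64, 721 and 362 after OVA. No marker of either list was at 0 in any library. T cell markers (14 of 15) summed to 2596 to 3209 after BSA and 1977 to 2244 after OVA. Some lists with few measured markers were higher after OVA. NK markers (3 of 7) summed to 13 to 24 after BSA and 37 to 90 after OVA. Type 1 conventional DC markers (5 of 8) summed to 82 to 147 and 167 to 288. Monocyte and macrophage, plasmacytoid DC and neutrophil sums overlapped between the groups. The part of these cells' RNA in the members' values was not tested.

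In the same T cells other proteasome genes rose. Of the constitutive catalytic subunits, Psmb7 rose by 1.14 ± 0.25 (adjusted p = 0.0116, limma) and Psmb6 by 0.82 ± 0.22 (adjusted p = 0.0269), and Psmb5 stood at 0.74 ± 0.32 (adjusted p = 0.126). Of 11 other core subunits 5 rose (Psma4, Psma5, Psma6, Psma7 and Psmb2), with a list median of 0.95. Of 9 activators and assembly factors 7 rose, among them the assembly chaperone Psmg1 (1.72), the nuclear activator Psme3 (1.62) and Pomp (0.90), which helps assemble the core, with a list median of 0.91. The log2 ratio of Psmb10 to Psmb7 stood at 2.58, 2.70 and 3.00 after BSA and at 0.71, 1.65 and 0.81 after OVA, with no overlap. Psmb9 to Psmb6 stood at 1.78, 1.36 and 1.32 after BSA and at -0.61, 1.16 and -0.16 after OVA, again with no overlap. With 3 libraries against 3 an exact test cannot go below 0.10, and none was run. Psmb7 reads numbered 16 to 49 per BSA library, so its ratio there is imprecise. Of the other class I heavy chains 8 could be tested, and 0 were called (3 at an unadjusted p under 0.05), all 8 being negative. Of 12 regulators, Irf9 fell by 0.76 ± 0.22 (adjusted p = 0.0341, limma).

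**Figure D5:**
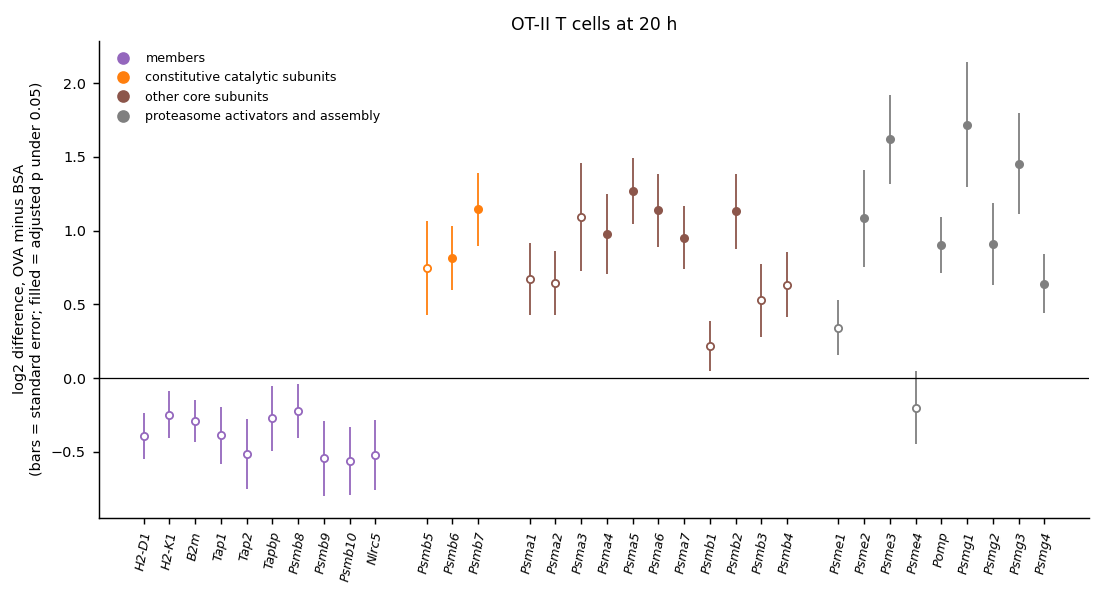
Log2 difference between OT-II T cells after OVA and after BSA particles at 20 h for the members and for 3 lists of proteasome genes, with bars for the standard error and filled points where the adjusted p is under 0.05. The 10 members lie between -0.56 and -0.22 and none is filled, while the constitutive subunits Psmb6 and Psmb7 lie at 0.82 and 1.14 and are.

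Across the 33 DC libraries the members kept company to different degrees. Values were log2(CPM + 1), with each gene's mean within its experiment subtracted. As a description, over libraries that share experiment and depth, the Pearson correlation of these values between a member and the mean of the other 9 was 0.93 for Psmb9, 0.91 for H2-D1, 0.90 for Tapbp, 0.89 for Psmb8, 0.87 for Tap1, 0.83 for Psmb10, 0.71 for Nlrc5, 0.63 for H2-K1, 0.61 for Tap2 and 0.21 for B2m. For B2m it was 0.91 within the time course, 0.30 within the costimulation experiment and -0.38 within the 20 h experiment. Among 5310 other genes with at least 20 CPM on average, those most like the members' mean were Trafd1 (0.92), Ube2l6 (0.91), Tmem140 (0.91), Uba7 (0.91), Tor1aip2 (0.90), Psme1 (0.90), Usp18 (0.90) and Parp12 (0.89). Within the time course these genes ran from 0.93 to 0.98 and within the 20 h experiment from 0.84 to 0.96. Within the costimulation experiment they ran from -0.09 for Usp18 to 0.89 for Psme1. Ube2l6 and Uba7 encode enzymes that attach the ubiquitin-like protein ISG15, and Usp18 removes it. For Nlrc5 alone, among 5319 genes, they were Gbp9 (0.83), Gbp4 (0.80), Asb13 (0.79), D17Wsu92e (0.78) and Irf1 (0.78).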

How the data were processed

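RNA of sorted mouse DC (33 libraries) and OT-II T cells (6) was captured on oligo(dT) and amplified by in vitro transcription, per the labels' protocols. Reads were processed with bcl2fastq, HISAT 0.1.6, HOMER and the mm9 build, per the submitters' processing notes. For DC the authors deposited raw counts per gene. For T cells they deposited normalized signal, counts divided by a size factor per the file headers and values, from which whole reads were recovered for every value (within 0.01 reads). The authors deposited an adjusted p-value per comparison in the same tables. By the authors' deposited tables, an adjusted p under 0.05 against non-immunized DC was listed for 10 and 9 members at 12 and 24 h after CpG-only particles, 10 and 9 after OVA-CpG particles, 9 for OVA and 7 for BSA at 20 h, and for 0 in the other comparisons they list that are used here. These counts carry no direction. The share of all genes under 0.05 by those values was not counted, so the counts cannot be set against it. In the 20 h table, 4 columns of 2 libraries that the labels put in no sample were not used.

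DC counts were tested per experiment with edgeR 4.0.16 (R 4.3.3, quasi-likelihood, TMM, filterByExpr, all groups in 1 fit, no covariates), T cells with limma 3.58.1 (trend, pseudocount 1, at least 10 normalized counts in 3 libraries), with Benjamini-Hochberg adjustment across the genes tested in each table. SE is the log2 difference over the root of F. DESeq2 1.42.0 was an alternative. Subunit ratios used a pseudocount of 0.5 and exact permutation (scipy 1.17.1). Intervals are 95%, from the SE by the normal approximation, and so too narrow for few libraries. Likeness is Pearson's correlation of log2(CPM + 1), centred per gene within each experiment, over genes averaging at least 20 CPM in each DC experiment. Replicates of every group differed by more than counting noise (chi-square per degree of freedom 1.95 to 16.86, T cells on recovered reads), so none were merged. The scripts were tested on simulated data. All 10 members were named, and a gene of the regulator list is not reported here. Members, lists and tests were chosen with earlier results of these data known. Promoters came from RefSeq on GRCm38.p6, a later build than the files' mm9. Alternatives covered tool, scaling, filters, pseudocounts, libraries in the fit, a replicate block, Y-linked transcripts and leaving out each library.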

Additional observations from a re-analysis of the deposited data

Results flagged for a closer look

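H2-K1 in OVA replicate 3 of the 20 h experiment stood at 9003 CPM, with the other 4 OVA libraries at 5384 to 6345 CPM. Its gap to the nearest library, as a share of the group's whole range, was 0.735, above Dixon's 95% critical value of 0.71 for 5 samples. This was 1 of 39 groups tested, and chance flags about 5% of groups. Without that library 8 members were called higher after OVA in place of 9. The member lost was Nlrc5, whose call was also lost without some other single libraries, and H2-K1 was still called.

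Nlrc5 differed between 24 and 12 h after CpG-only particles by 0.76 on the log2 scale, by a test of that difference itself. The same step after OVA-CpG particles was 0.41, and the test of the difference between the steps gave -0.35 ± 0.25 (adjusted p = 0.584, edgeR).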

How the results depend on the processing

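The counts of members called against non-immunized DC after CpG-only particles at 24 h (6 to 10 leaving out each library), OVA-CpG particles at 12 h (6 to 9) and 24 h (9 to 9) and OVA at 20 h (8 to 9) stayed within 1.5 times the reported count in every alternative run. For CpG-only particles at 12 h, leaving out 1 library left a group with 1 library, and fewer members and fewer of all genes were called. For 24 against 12 h after CpG-only particles the count was 0 in place of 1 with only the groups compared, and 0 to 1 leaving out each library. For the libraries labelled Cd80/86 -/- against wild type it was 1 in place of 0 with only the groups compared. That fit called 679 of 8473 genes. In a fit with a term for Y-linked transcripts, the count of members for BSA at 20 h was 3 in place of 5. That fit called 187 of 9159 genes in place of 499. The count of members was 7 with DESeq2 and without non-immunized and OVA replicates 3 together, and 4 to 6 leaving out each library. In T cells it was 0 to 5 leaving out each library. B2m after OVA at 20 h changed sign without OVA replicate 2 (-0.0017) and without OVA replicate 4 (-0.0114), and ran from -0.0114 to 0.215 leaving out each library. The cause of these changes was not tested, beyond that fewer libraries leave fewer degrees of freedom. The members' own values were followed for 80 results: those against non-immunized DC, those in T cells and some named in other comparisons. Most values of the antigen, time and costimulation comparisons were not among them. Over the alternatives of these results, 930 values kept direction and side of the threshold, 45 lost it, 17 gained it and 2 changed sign. After OVA at 20 h, leaving out each library, the difference in the ratio of Psmb10 to Psmb7 ran from 0.71 to 0.94, of Psmb9 to Psmb6 from 0.25 to 0.43 and of Psmb8 to Psmb5 from 0.24 to 0.53. Where a group of 2 was left with 1 library, that library is assumed to vary like the other groups.

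Replicate numbers were not taken as pairs. Correlations of same-numbered libraries' deviations ran from -0.14 to 0.17 over the DC comparisons at 20 h and -0.12 to 0.05 in T cells, and with 5 pairs not every one was above 0.1. They ran from -0.05 to 0.15 in the time course and -0.06 to 0.03 in the costimulation experiment. Low correlations do not show that the libraries were unpaired. With the replicate block 8 members were called after OVA at 20 h in place of 9, Nlrc5 standing at adjusted p = 0.0606, and the block moved the other counts of members by 0. Depth limits Psmb5 and Psmb7 most, whose counts fell to 10 and 16 in a T cell library.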
